A study of Rattus norvegicus with 12 samples.

Results

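The synaptophysin family was followed across primary hippocampal cultures that had been exposed to oxygen and glucose deprivation (OGD), an in vitro model of global cerebral ischemia. The family was defined by 6 gene names, Syp, Sypl1, Sypl2, Synpr, Syngr1 and Syngr3, and its members were the non-control probes whose RefSeq accession belongs to one of them. Of the 6 genes, 5 were represented, by 7 of the 30367 probes (15154 gene symbols are named in all). No probe of the array carried the accession of Syp, synaptophysin itself, which was therefore not analysed here. Sypl2 had been picked because its signal was higher after OGD at both times while its control level differed strongly between the times, so those values of Sypl2 are given as a description without a test. On build GRCr8 the gene of Sypl2 lies at chr2:198537208-198551939, that of Sypl1 at chr6:55292555-55311519, that of Synpr at chr15:14003861-14330808, that of Syngr1 at chr7:113516246-113542918 and that of Syngr3 at chr10:14215088-14219844.

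Neurons came from the hippocampus of Wistar rat embryos (E18 in the labels, E18-E19 in the methods of the study) and were matured in Neurobasal medium before use. Cultures of the OGD groups were held in a saline buffer without glucose in an anaerobic chamber, and control cultures were held for the same time in a glucose-containing buffer in air and CO2. All cultures then recovered in conditioned medium for 7 h or 24 h. Each of the 4 groups (control 7 h, OGD 7 h, control 24 h and OGD 24 h) comprised 3 independent cultures, each hybridized to 1 one-color array, which makes 12 arrays in all. The cultures are neuron-enriched rather than pure. Signals are given as log2 of the processed intensity after subtraction of the median of the array, so that 0 is the median probe of that array and 1 unit is a factor of 2. Because RNA was taken from whole cultures, fewer cells of a type and less RNA per cell cannot be told apart in any value below.

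Proteins of the synaptophysin family span the membrane several times and are built around a MARVEL domain, a fold found in proteins of transport vesicles and tight junctions. Synaptophysin and synaptoporin (Synpr) are abundant membrane proteins of synaptic vesicles, and the synaptogyrins Syngr1 and Syngr3 are their more distant relatives on the same vesicles. In nerve terminals synaptophysin is known as a partner of the vesicle SNARE synaptobrevin and as a modulator of vesicle recycling. Pantophysin (Sypl1) is the broadly expressed member and resides on transport vesicles of many cell types. Sypl2, also called mitsugumin 29, is best known from skeletal muscle, where it sits in the triad junction between the transverse tubule and the sarcoplasmic reticulum.

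Promoters were taken from RefSeq on build GRCr8 to show the sequence next to the start of the members whose differences after OGD were of opposite sign and largest in size at 7 h, Sypl2 (above 0) and Synpr (below 0). Each line gives the 250 bases before the annotated start, 5′ to 3′ on the strand of the gene, and capitals mark a match to one of the motifs searched for. The window of Sypl2 is chr2:198551940-198552189 and that of Synpr is chr15:14182358-14182607, both on the minus strand. The window of Synpr lies inside the annotated span of the gene, which extends further upstream.
Sypl2: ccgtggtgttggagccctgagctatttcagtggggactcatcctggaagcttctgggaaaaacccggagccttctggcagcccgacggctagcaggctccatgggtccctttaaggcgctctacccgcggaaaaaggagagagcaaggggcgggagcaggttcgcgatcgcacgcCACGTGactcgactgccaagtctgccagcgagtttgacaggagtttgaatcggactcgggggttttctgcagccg
Synpr: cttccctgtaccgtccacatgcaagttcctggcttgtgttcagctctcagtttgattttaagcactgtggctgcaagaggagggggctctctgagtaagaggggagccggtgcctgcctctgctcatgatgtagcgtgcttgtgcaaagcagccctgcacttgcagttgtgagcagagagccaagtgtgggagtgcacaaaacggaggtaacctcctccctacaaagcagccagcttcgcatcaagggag
The motifs searched for on both strands are short enough to be found often: ACGTG, the core of the hypoxia response element, CACGTG, an E-box, and TGAGTCA, an AP-1 site. The Sypl2 window held CACGTG at 75 to 70 bases before the start, and as this word reads the same on both strands it contains ACGTG once on each strand. The Synpr window held none of the motifs. Among 33469 windows of the same length, 16.6% held ACGTG, 5.59% held CACGTG and 4.05% held TGAGTCA. No window was listed for Sypl1, Syngr1 and Syngr3. A match of letters is a description and says nothing about binding of a factor.

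Between 78.3% and 87.1% of the probes were well above background on an array. The OGD 24 h array of replicate 1 stood apart, with a median intensity of 131 against 234 to 660 on the other arrays. On each of the 6 slides, a control culture was hybridized beside an OGD culture with the same time and replicate number. On 3 of the slides (replicates 1 and 2 of 7 h and replicate 1 of 24 h) the OGD array was scanned 177 to 212 min before the control array, and on the other 3 both carry the same scan time. All slides of 7 h were scanned on another day than those of 24 h, and therefore recovery time, slide and scan day cannot be told apart. No probe passed an adjusted p of 0.05 for OGD against control at either time by limma with Benjamini-Hochberg adjustment. A probe is therefore described as called when its unadjusted p by limma was under 0.05 and its fold at least 2. These are the thresholds of the study, which applied them to another test, here named the methods' t-test. At 7 h this criterion held for 2.08% of all probes in the higher and for 1.66% in the lower direction, and at 24 h for 3.71% and 1.96%. With the methods' t-test in place of limma the shares were 1.25% and 1.41% at 7 h and 1.77% and 0.313% at 24 h. An unadjusted p under 0.05 alone was reached by 4.79% (higher) and 7.03% (lower) of the probes at 7 h and by 7.51% and 6.19% at 24 h.

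Sypl2 gave the widest span of levels in the family. On its brighter probe, A_43_P15024, the control 7 h arrays read 1.77, 1.94 and 2.80 and the OGD 7 h arrays 3.63, 3.47 and 3.50 (log2). The control 24 h arrays read -2.53, -1.75 and -1.81 and the OGD 24 h arrays -0.40, -0.63 and -0.88. After subtraction of the array median, all 3 OGD arrays lay above all 3 control arrays at each time, and all 6 arrays of 24 h lay below all 6 arrays of 7 h. The order of the groups was thus OGD 7 h, control 7 h, OGD 24 h and control 24 h, and no 2 neighbours in this order overlapped. The probe was well above background on all 12 arrays, with processed intensities of 828 to 2297 on the 7 h arrays and of only 32.5 to 129.7 on the 24 h arrays. Before the median was subtracted, OGD and control intensities overlapped at both times. The control 7 h array of replicate 3 (1859) exceeded the OGD 7 h array of replicate 1 (1501). The control 24 h array of replicate 2 (65.4) exceeded the OGD 24 h array of replicate 1 (57.0).

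The difference between OGD and control for Sypl2 was of similar size at both times although the levels were far apart. It was 1.36 (SE 0.30) at 7 h, a 2.57-fold higher signal, and 1.39 (SE 0.30) at 24 h, 2.63-fold higher. Within slides, OGD exceeded control by 1.86, 1.53 and 0.70 at 7 h and by 2.13, 1.12 and 0.94 at 24 h, higher on 6 of 6 slides. The largest, 2.13, came from the slide of the OGD 24 h array of replicate 1, which had the low median intensity of 131. There the intensities before scaling were 57.0 in OGD and 32.5 in control. On the 3 slides whose arrays were scanned apart the differences were 1.53 to 2.13, and on the 3 scanned together 0.70 to 1.12, and the part of the scan in this was not tested. The difference of the responses, 24 h minus 7 h, was 0.03 (SE 0.42). Sypl2 was picked for these differences, so its rank among all probes follows from the choice. Of all probes, 609 had a larger positive difference at 7 h and 933 at 24 h. The size at both times was smaller under some other processing. With the spike-in, an RNA added during labeling, as reference it was 0.56 and 0.37, and after normexp background correction 0.82 and 0.83. Centring on the 75th percentile instead made it larger, by 0.11 at each time.

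**Figure D1:**
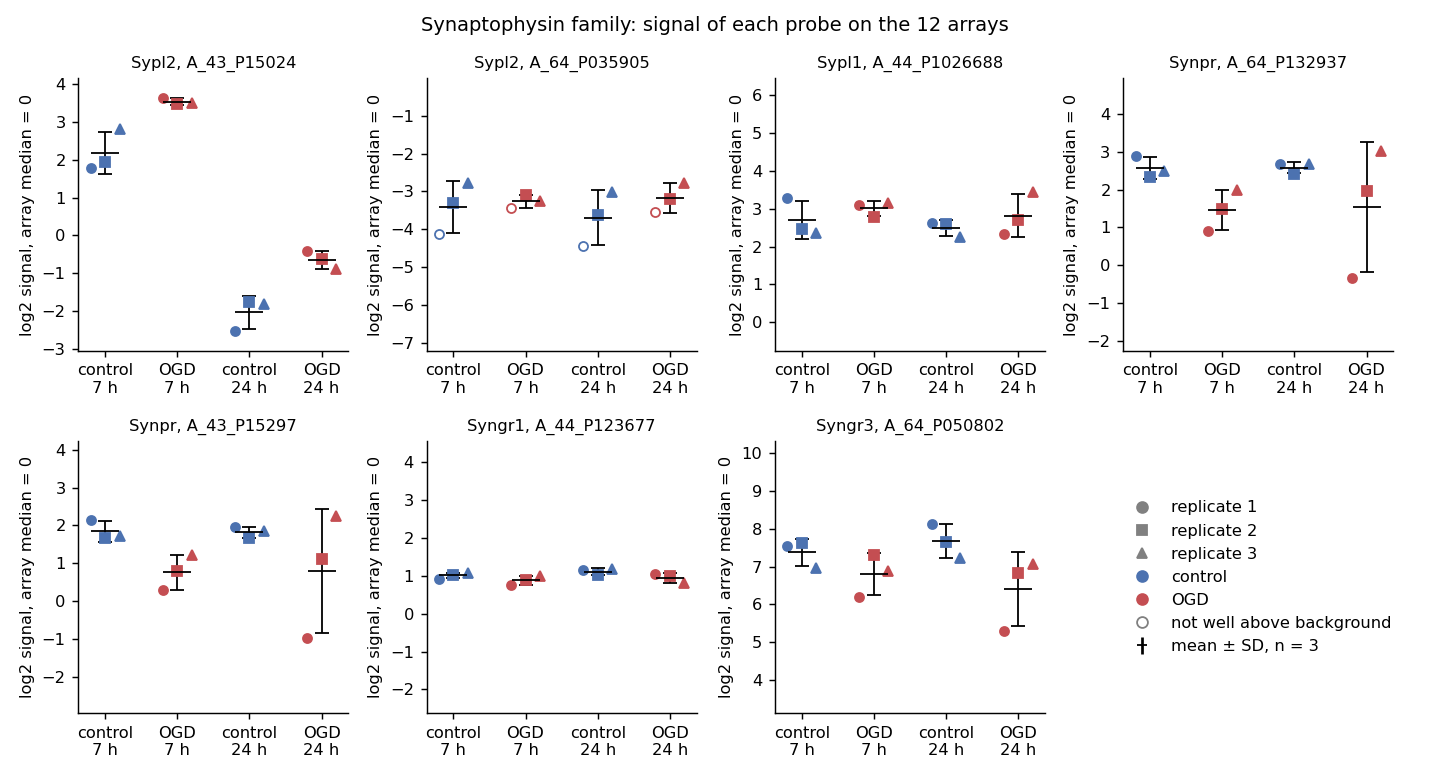
Signal of the 7 probes of the family on the 12 arrays (vertical axis, log2 signal with the array median at 0; every panel spans the same number of log2 units) in the 4 groups, with mean and SD of 3 arrays; open symbols were not well above background. On the brighter Sypl2 probe the 4 groups are separate, from a mean of 3.54 in OGD 7 h down to -2.03 in control 24 h, whereas the groups of most other probes overlap.

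On the brighter Sypl2 probe, the control groups differed far more between the times than OGD and control differed at either time. Recovery time, slide and scan day cannot be told apart in this difference. The control level at 24 h minus that at 7 h was -4.20 (SE 0.30), an 18.4-fold lower signal, and the OGD level at 24 h was 18.1-fold lower than at 7 h. Over the whole array, 2 probes had a more negative difference between the controls and 4 had a larger one in size. Differences of 8-fold or more in size, both in the controls and in the OGD groups, were found for 14 probes. Of these, 7 were lower at 24 h in both, and 3 of these 7 were well above background on all 12 arrays. The Sypl2 probe is one of those 3. Sypl2 was picked for a strong difference between its control levels, so these extreme ranks follow from the choice.

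**Figure D2:**
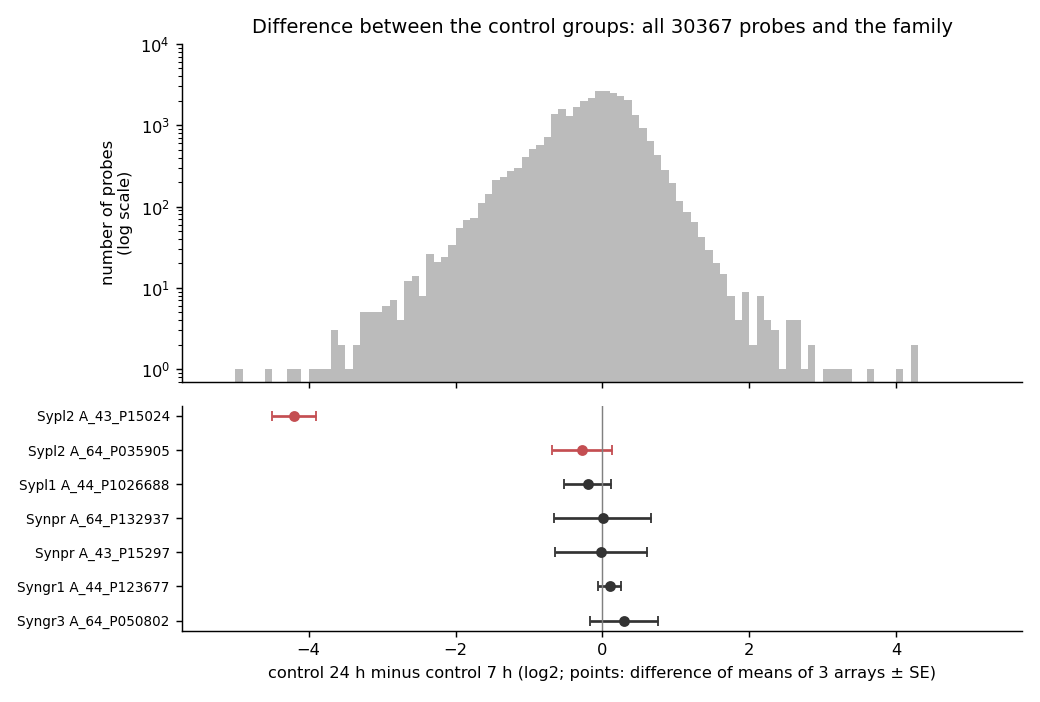
Difference between control 24 h and control 7 h (horizontal axis, log2) for all 30367 probes (upper panel, histogram with a logarithmic count axis) and for the probes of the family (lower panel, difference of means ± SE). The brighter Sypl2 probe lies at -4.20, in the far lower tail, and the other 6 probes lie between -0.28 and 0.29.

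The spike-in RNA also differed between the times, in the opposite direction. Whether every sample of both days received the same amount of it is not given in the sources used here. Of 10 kinds of spike-in probe, 3 were not saturated, and all 3 were brighter on the control 24 h arrays than on the control 7 h arrays, by 1.53 to 4.25 on the log2 scale. The one that was well above background and unsaturated everywhere, the mean of 32 spots, read 5.58 to 6.75 on the 7 h arrays and 9.75 to 12.6 on the 24 h arrays before any scaling, with the highest value on the OGD 24 h array of replicate 1. Scaled to this spike-in, the difference of Sypl2 between control 24 h and control 7 h was -8.78, a value that holds only if the amounts were equal, since the scaling moved every probe by -4.57 in this comparison. In the time difference of Sypl2, the parts of recovery time, slide and scan day cannot be told apart.

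**Figure D3:**
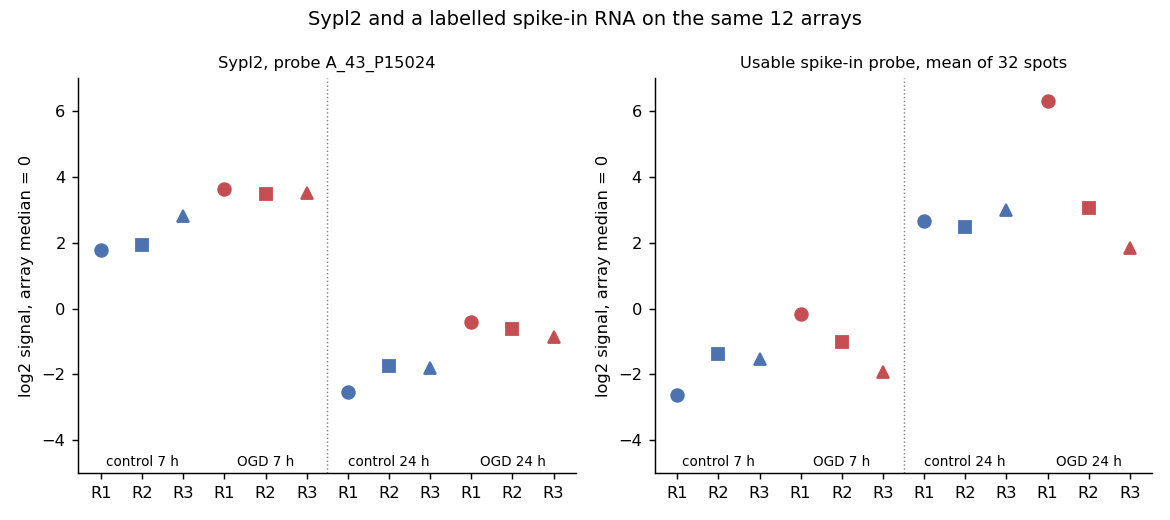
Sypl2 (left) and the usable spike-in (right) on the same 12 arrays (vertical axis, log2 signal with the array median at 0; blue, control; red, OGD; circles, squares and triangles, replicates 1 to 3; the dotted line separates the times). From 7 h to 24 h Sypl2 goes down on all arrays while the spike-in goes up, with the OGD 24 h array of replicate 1 highest at 6.32.

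The other Sypl2 probe, A_64_P035905, carries the same RefSeq transcript but did not follow the first. It was dim, and it was not well above background on the replicate 1 array of any group. Its values were -4.14, -3.32 and -2.79 in control 7 h, -3.44, -3.08 and -3.26 in OGD 7 h, -4.45, -3.62 and -3.01 in control 24 h and -3.56, -3.19 and -2.77 in OGD 24 h. All 4 groups overlapped. The OGD difference was 0.15 at 7 h and 0.52 at 24 h (SE 0.41 each), and the controls differed by -0.28 instead of -4.20. Across arrays the 2 probes correlated with r = 0.28 over 12 arrays, and with r = 0.50 and 0.59 over the 6 arrays of 7 h and of 24 h. Averaged over both probes, the OGD difference of Sypl2 was 0.76 at 7 h and 0.96 at 24 h, and the control difference -2.24. As the probe sequences are not given in the files, it was not tested which part of the transcript each probe reads.

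Sypl1, the pantophysin gene, stayed between 2.26 and 3.44 on all arrays. Its single probe, A_44_P1026688, read 3.28, 2.46 and 2.35 in control 7 h, 3.11, 2.77 and 3.14 in OGD 7 h, 2.64, 2.59 and 2.26 in control 24 h and 2.33, 2.70 and 3.44 in OGD 24 h. The groups overlapped at each time. OGD minus control was 0.31 at 7 h (SE 0.32, adjusted p = 0.723) and 0.33 at 24 h (SE 0.32, adjusted p = 0.651), neither past the threshold, and the sign turned to -0.50 at 7 h and -0.70 at 24 h with spike-in scaling and to -0.19 at 7 h with normexp. The difference was above 0 on 2 of 3 slides at each time.

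Synpr, which encodes the vesicle protein synaptoporin, pointed the other way. Its brighter probe, A_64_P132937, read 2.90, 2.34 and 2.50 in control 7 h against 0.91, 1.498 and 1.98 in OGD 7 h, and all OGD arrays lay below all control arrays. At 24 h the control arrays read 2.66, 2.41 and 2.67 and the OGD arrays -0.35, 1.95 and 3.02. These groups overlapped, since one OGD array was far below and another above every control. The difference was -1.11 at 7 h (SE 0.66, adjusted p = 0.515) and -1.04 at 24 h (SE 0.66, adjusted p = 0.491), so that Synpr was not called at either time. At 7 h the result depended on the test: Synpr had an unadjusted p under 0.05, and was thus called lower, by the methods' t-test, by limma on the 7 h arrays alone and by limma without the OGD 24 h array of replicate 1. On the slides scanned apart the differences of both times were -3.01 to -0.84, and on those scanned together -0.52 to 0.35. At 24 h the value rested on that array, and without it the difference was -0.09. The other probe of Synpr, A_43_P15297, gave -1.08 and -1.02, and followed the first with r = 0.999 over the 12 arrays.

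Among the synaptogyrins, Syngr3 was the brightest member of the family and the only tested one that was called. Its probe, A_64_P050802, read 7.55, 7.63 and 6.97 in control 7 h and 6.20, 7.30 and 6.87 in OGD 7 h, with overlap. It read 8.14, 7.65 and 7.24 in control 24 h and 5.30, 6.84 and 7.08 in OGD 24 h, without overlap. OGD minus control was -0.59 at 7 h (SE 0.46, adjusted p = 0.633) and -1.27 at 24 h (SE 0.46, adjusted p = 0.311), a 2.41-fold lower signal at 24 h that was called by limma without passing the adjusted threshold. By the methods' t-test, the one used in the study, Syngr3 was not called at either time. Syngr3 was lower on 6 of 6 slides, with differences of -1.34, -0.33 and -0.10 at 7 h and of -2.84, -0.81 and -0.16 at 24 h. The call was lost without the OGD 24 h array of replicate 1 (-0.71) and without the control 24 h array of replicate 1 (-1.04). Brightness is a property of the probe, so its high reading does not rank the transcript above those of the other members.

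Syngr1, a synaptogyrin of neuronal synaptic vesicles, varied least. Its probe, A_44_P123677, read 0.93, 1.03 and 1.08 in control 7 h, 0.76, 0.89 and 1.01 in OGD 7 h, 1.15, 1.01 and 1.17 in control 24 h and 1.06, 0.99 and 0.80 in OGD 24 h. OGD arrays were lower than control on 6 of 6 slides, by differences of -0.02 to -0.37, and the groups overlapped. The difference was -0.13 at 7 h (SE 0.16, adjusted p = 0.774) and -0.16 at 24 h (SE 0.16, adjusted p = 0.647).

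**Figure D4:**
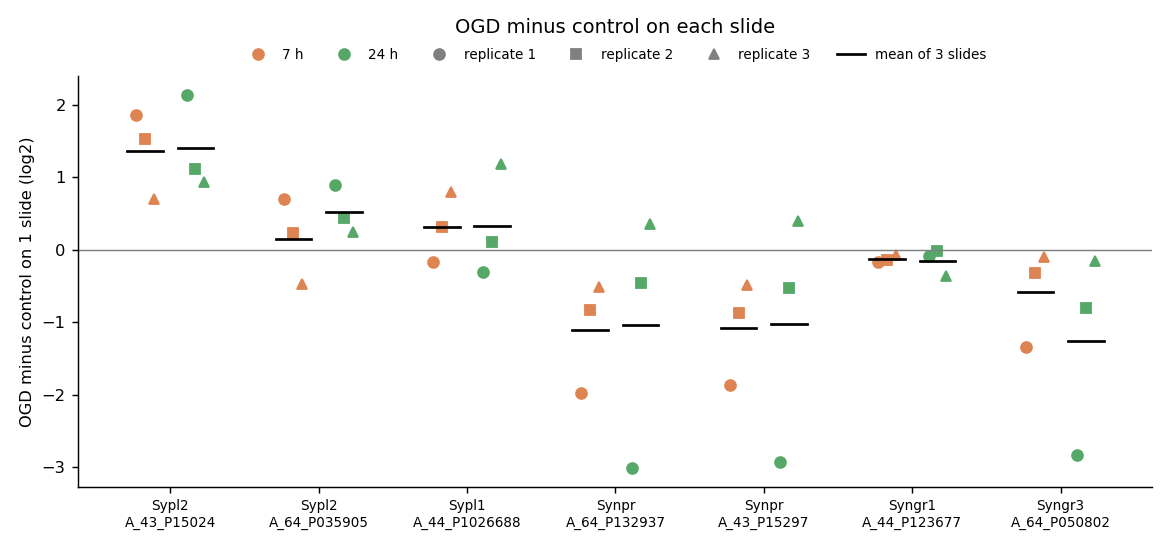
OGD minus control on each slide (vertical axis, log2; orange, 7 h; green, 24 h; circles, squares and triangles, replicates 1 to 3; bars, mean of 3 slides) for the 7 probes. The brighter Sypl2 probe is above 0 on all 6 slides and Syngr3 and Syngr1 are below 0 on all 6; the slides of replicate 1 carry the largest differences of Sypl2 (A_43_P15024), Synpr and Syngr3, and Sypl1 lies on both sides of 0, with a mean that turns negative under spike-in scaling.

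Of the 4 tested genes other than Sypl2, 0 were called at 7 h by limma, where 2.08% of all probes were called higher and 1.66% lower, and 0 had an unadjusted p under 0.05. By the methods' t-test 1 of the 4, Synpr, was called lower at 7 h, against 1.41% of all probes, and 0 of the 4 were called at 24 h, where that test called 1.77% of all probes higher and 0.313% lower. By limma 1 of the 4, Syngr3, was called lower at 24 h against 1.96% of all probes, and 0 were called higher against 3.71%. With so few genes these shares are given as a description. No tested member passed the adjustment over all probes for OGD against control.

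The test of whether the response to OGD differed between 24 h and 7 h gave an unadjusted p under 0.05 for 0 of the 4 genes, with 2.18% of all probes higher and 1.4% lower by that threshold and 0 probes past an adjusted p of 0.05. The interaction was -0.68 for Syngr3 (SE 0.66), 0.08 for Synpr (SE 0.94), 0.01 for Sypl1 (SE 0.45) and -0.03 for Syngr1 (SE 0.22). The SE of these values are wide, and a p that misses the threshold does not show equal responses. The control levels at 24 h and 7 h were also compared, as Sypl2 differed so much there. Again 0 of the 4 genes had an unadjusted p under 0.05 (5.65% of all probes higher and 9.07% lower), with differences of 0.29 for Syngr3 (adjusted p = 0.796), 0.004 for Synpr (adjusted p = 0.999), -0.20 for Sypl1 (adjusted p = 0.792) and 0.10 for Syngr1 (adjusted p = 0.794). All 4 genes passed that threshold when the arrays were scaled to the spike-in, and there also passed an adjusted p of 0.05. As that scaling moved every probe by -4.57, it is not known whether these differences reflect the levels of the genes or the amount of spike-in added.

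Correlations between the members were of both signs. Over the 12 arrays Synpr and Syngr3 correlated with r = 0.84 (0.73 over the 6 arrays of 7 h and 0.88 over those of 24 h), and Syngr1 and Sypl1 with r = -0.77 (-0.60 and -0.88). Sypl2 correlated with Syngr3 at -0.24 over all arrays but at -0.77 and -0.85 within 7 h and within 24 h, since its arrays fall into separate clusters by time. For Sypl2 and Sypl1 the values were 0.30, 0.16 and 0.19. These coefficients describe arrays that share slides and treatment groups. As Sypl2 was picked for its rise after OGD, a negative r within a time with a gene lower after OGD follows in part from the choice.

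The genes most like Sypl2 were sought among 10923 named genes well above background on all arrays. The 5 highest correlations over the 12 arrays belonged to Acsm3 (r = 0.979), Pdcl3 (0.967), Cenpa (0.967), Srxn1 (0.964) and Cited1 (0.962). Within the 6 arrays of 7 h and of 24 h, the r values were 0.88 and 0.89 for Acsm3, 0.83 and 0.70 for Pdcl3, 0.88 and 0.96 for Cenpa, 0.77 and 0.60 for Srxn1, and 0.79 and 0.78 for Cited1. Acsm3 encodes a mitochondrial acyl-CoA synthetase, Cenpa the centromeric histone, Srxn1 the antioxidant enzyme sulfiredoxin and Cited1 a transcriptional coregulator. Their control levels were also lower at 24 h than at 7 h, by between -0.94 for Cited1 and -2.12 for Cenpa, compared with -4.20 for Sypl2. As most of the variation of Sypl2 over the 12 arrays is its difference between the times, genes chosen for a high correlation with it had to be lower at 24 h, so that this direction follows from the choice. The r values within a time come from the same arrays on which the genes were chosen. There Sypl2 varies in part by the rise after OGD for which it was picked, so these values are no separate support for a likeness.

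Of the synaptogyrins outside the list, Syngr2 is the broadly expressed one and Syngr4 the one known from testis. Syngr2 (A_43_P12851) ran opposite to Syngr3: at 24 h its control arrays ranged from -0.14 to 0.70 and its OGD arrays from 0.86 to 1.37, without overlap. The difference was 0.74 (SE 0.26, adjusted p = 0.298), a 1.67-fold higher signal that stayed under the fold of 2, with 3 of 3 slides higher by 1.51, 0.54 and 0.16. At 7 h it was 0.21 (adjusted p = 0.772). With spike-in scaling the values turned to -0.59 at 7 h and -0.29 at 24 h, and with normexp the value at 7 h turned to -0.04. At 24 h the unadjusted p under 0.05 was lost without the control 24 h array of replicate 1 (0.49), without the OGD 24 h array of replicate 1 (0.60), with normexp (0.43) and by the methods' t-test. Syngr4 was not well above background on any array.

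Other proteins of the synaptic vesicle were examined on a list of 29 genes, all with a probe and 27 of them well above background on every array. At 7 h 4 of the 29 were called lower and 0 higher by limma, against 1.66% and 2.08% of all probes. Their list had a median difference of -0.51, compared with a median of -0.06 over all probes. At 24 h 10 of the 29 were called lower and 0 higher by limma, against 1.96% and 3.71% of all probes, with a median of -0.87 (0.01 over all probes). By the methods' t-test 4 were called lower at 7 h and only 1 at 24 h, against 1.41% and 0.313% of all probes, and by limma on the 24 h arrays alone 6 were. The difference was below 0 for 25 of the 29 genes at each time, as it was for 54.8% of all probes at 7 h and 48.0% at 24 h. None of the 29 passed the adjusted threshold. With an unadjusted p under 0.05 by limma alone 6 were lower at 7 h and 16 at 24 h, against 7.03% and 6.19% of all probes. The count of genes called lower at 24 h dropped from 10 to 1 without the OGD 24 h array of replicate 1 and was 4 without the control 24 h array of replicate 1. It was 6 without the control 24 h array of replicate 2, 16 without that of replicate 3 and 17 without the OGD 24 h array of replicate 2. At 7 h it was 0 with spike-in scaling and 8 with normexp, 0 without the OGD 7 h array of replicate 1 or the control 7 h array of replicate 2, and 2 without the control 7 h array of replicate 1.

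Lowest at 7 h among the vesicle genes with a p under 0.05 were Svop, a transporter-like vesicle protein (-1.19, adjusted p = 0.317), Slc17a7, which encodes the vesicular glutamate transporter VGLUT1 (-1.18, adjusted p = 0.352), and Slc17a6, which encodes VGLUT2 (-1.14, adjusted p = 0.395). At 24 h they were Sv2b, another transporter-like vesicle protein (-1.59, adjusted p = 0.269), Slc17a7 (-1.53, adjusted p = 0.269) and the SNARE Vamp1 (-1.42, adjusted p = 0.290). Each of these was lower on 3 of 3 slides. The list ranged from -1.19 to 1.55 at 7 h and from -1.59 to 1.40 at 24 h, and all 5 family genes lay within these ranges. The upper end was set at both times by Clcn3, a chloride transporter with a wide SE (1.00). Next highest were Rph3a at 7 h (0.83) and Syn3 at 24 h (0.26). On its brighter probe Sypl2 thus lay above every list gene except Clcn3 at both times, and this place follows from the choice of Sypl2. Its other probe, at 0.15, lay below Rph3a at 7 h. Sypl1 also lay above every list gene except Clcn3 at 24 h, at 0.33 (SE 0.32) close to Syn3 (SE 0.34).

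**Figure D5:**
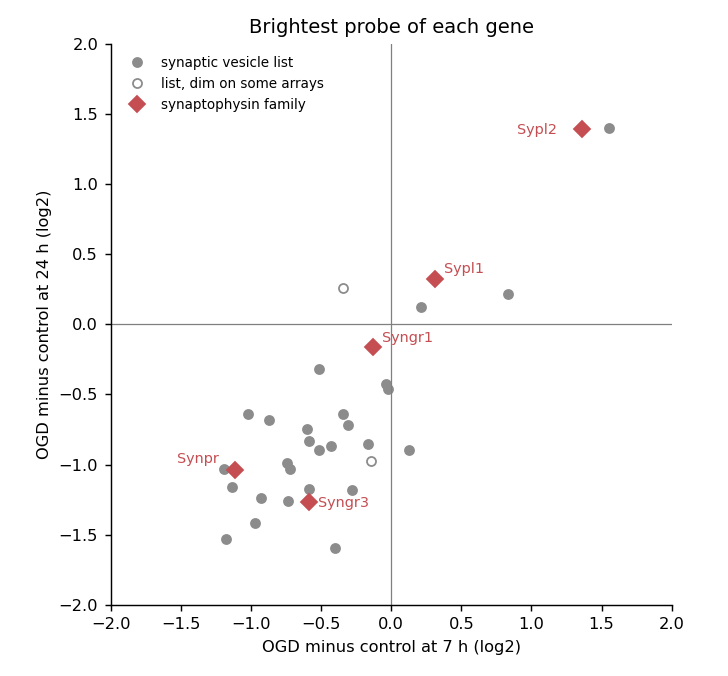
OGD minus control at 7 h (horizontal axis, log2) and at 24 h (vertical axis, log2) for the brightest probe of each of the 29 synaptic vesicle genes (gray; open where not well above background on all arrays) and of the 5 genes of the family (red). Synpr at -1.11 and -1.04 and Syngr3 at -0.59 and -1.27 lie among the list, Syngr1 and Sypl1 lie near the origin, Sypl1 with a sign that turns under spike-in scaling, and Sypl2 lies at 1.36 and 1.39.

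Markers of cell types were measured beside these values. All 16 neuron markers, among them Rbfox3, Map2 and Snap25, were well above background on every array. Their median difference after OGD was -0.32 at 7 h and -0.61 at 24 h, and 12 of 16 were below 0 at 7 h, against 54.8% of all probes. At 24 h 16 of 16 were below 0, against 48.0% of all probes. Of the 16, 7 had an unadjusted p under 0.05 and 2 were called, against 6.19% and 1.96% of all probes in the lower direction. These counts were not repeated without the OGD 24 h array of replicate 1. The mean level of the 16 ranged from 4.55 to 4.99 on the control 24 h arrays and from 3.54 to 4.43 on the OGD 24 h arrays, and from 4.47 to 4.79 and 4.04 to 4.58 at 7 h. The 11 astrocyte markers had a median of 0.15 at 7 h and -0.29 at 24 h with 0 called. Of the 11, 10 were above 0 at 7 h, which holds only with the array median as reference. Spike-in scaling shifts every probe by -0.81 at 7 h, and the highest of the 11 was 0.65. Aldoc (0.65, adjusted p = 0.398) and Slc1a3 (0.52, adjusted p = 0.352) had an unadjusted p under 0.05, as did 4.79% of all probes in the higher direction. At 24 h 9 of the 11 were below 0. Their mean level was 5.71 to 5.77 and 5.76 to 6.06 on the control and OGD arrays of 7 h and 5.61 to 5.94 and 4.70 to 6.07 on those of 24 h. The part of these shifts in the values of Synpr and Syngr3 was not tested.

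As Sypl2 is best known from muscle, 12 skeletal muscle genes were measured too, 8 of them well above background on every array. Their mean level was -1.92 to -1.58 in control 7 h, -1.93 to -0.998 in OGD 7 h, -2.11 to -2.01 in control 24 h and -2.19 to -1.68 in OGD 24 h, and these ranges overlapped at both times. Called were Ckm, the muscle creatine kinase, which was higher at 7 h (3.06, adjusted p = 0.274) and at 24 h (2.83, adjusted p = 0.288), the myosin heavy chain Myh1, lower at both times (-1.89, adjusted p = 0.297, and -1.61, adjusted p = 0.314), and Myh4, lower at 7 h (-1.13, adjusted p = 0.270). These genes were chosen after their values were seen. Of all probes, 2.08% were called higher and 1.66% lower at 7 h, and 3.71% and 1.96% at 24 h. The control difference between the times had a median of -0.35 over the 12 muscle genes. Of these, 0 were called by limma (0.83% of all probes were called higher and 4.1% lower there). An unadjusted p under 0.05 was reached by 3 of the 12 (5.65% of all probes higher and 9.07% lower). Whether RNA of other cells had a part in the Sypl2 signal was not tested.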

How the data were processed

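Signals of 12 one-color Agilent arrays (whole-genome Rat GE, Cy3) were analysed, from 3 cultures per group, with groups taken from the labels. The deposited intensity values were made by the authors with Agilent Feature Extraction 10.5.1.1, which subtracted background and corrected spatial trends and left arrays unscaled. Also deposited were the authors' median-centred log2 values, which on each array differed from log2 of the intensities by 1 constant within 0.01 for 99.997% to 100% of probes. Of 44254 spots per array, 42877 are not controls and form 30367 probes. Spots flagged as outliers were left out, spots of a probe were averaged on the log2 scale and the array median was subtracted. Probes (designed on rat build rn4) took their gene symbol from the RefSeq accession in the scanner files, 18004 in all. All columns of samples were used. No filter on dim probes was applied.

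The 4 groups were fitted in 1 linear model (limma 3.58.1, R 4.3.3) with empirical Bayes moderation. Two-sided p-values were adjusted across the 30367 probes after Benjamini and Hochberg. Adjusted p-values in the text are from this fit. The brightest probe represents a gene and other probes are described beside it. The procedure was tested on simulated data. The precision is limited by the 3 arrays per group. Alternatives tried were quantile normalization, scaling by the 75th percentile or the spike-in, normexp (offset 50, on median spot signals in place of mean ones), a floor of 10, a filter on dim probes, the authors' values, the methods' t-test, each time alone, the mean over probes, slide blocks and each array left out. The members and gene lists were chosen with earlier results of these data known. Named from each list were up to 3 genes with the highest and 3 with the lowest difference at each time among those with an unadjusted p under 0.05, and the 5 genes most correlated with Sypl2.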

Additional observations from a re-analysis of the deposited data

How the results depend on the processing

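Directions held under all alternatives for Synpr, Syngr1 and Syngr3 at both times and for Sypl2 in its 3 comparisons, and no adjusted p of a tested member for OGD against control fell under 0.117. For the difference of the responses the lowest was 0.555, and between the controls 0.622 except with spike-in scaling, where all 4 members were between 5.4e-05 and 1.7e-04. Values with exceptions follow, and the cause was not tested. The spike-in scaling shifted every probe by -0.81 at 7 h, -1.02 at 24 h and -4.57 between the controls; centring on the 75th percentile shifted OGD against control by 0.11 at each time. Sypl1 turned to -0.50 (7 h) and -0.70 (24 h) with spike-in scaling and to -0.19 (7 h) with normexp. Syngr2 turned to -0.59 (7 h) and -0.29 (24 h) with spike-in scaling and to -0.041 (7 h) with normexp, and at 24 h missed an unadjusted p of 0.05 with normexp (0.43), by the methods' t-test (0.74) and without either replicate 1 array of 24 h (0.49 to 0.60). Synpr at 7 h passed an unadjusted p of 0.05 with normexp (-1.40), the methods' t-test (-1.11) and each time alone (-1.11). Syngr3 at 24 h missed it by the methods' t-test (-1.27). The number of the 4 tested members past that threshold between the controls was 4 with spike-in scaling and 0 otherwise. For Sypl2, spike-in scaling, normexp and the mean over probes gave 0.56, 0.82 and 0.76 at 7 h, 0.37, 0.83 and 0.96 at 24 h, and -8.78, -3.15 and -2.24 between the controls.

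With each array left out in turn, Sypl2 ranged from 1.16 to 1.68 at 7 h, from 1.14 to 1.53 at 24 h and from -4.40 to -3.89 between the controls. Synpr ranged from -1.37 to -0.84 at 7 h and from -1.78 (unadjusted p under 0.05, without the OGD 24 h array of replicate 3) to -0.093 (without the OGD 24 h array of replicate 1) at 24 h. Syngr3 ranged from -0.84 to -0.29 at 7 h and from -1.60 to -0.71 at 24 h, Sypl1 from 0.14 to 0.60 and from 0.02 to 0.57, and Syngr1 from -0.19 to -0.06 and from -0.21 to -0.09. Vesicle genes called lower numbered 4 at 7 h, 0 with spike-in scaling, 8 with normexp and 0 to 5 with arrays left out. At 24 h they numbered 10, 1 by the methods' t-test, 6 with each time alone and 1 to 17 with arrays left out. MARVEL genes called higher at 24 h numbered 3, and 0 with spike-in scaling, normexp or the methods' t-test; the 1 called lower at 7 h was lost with 6 of the settings that keep all arrays. Triad genes called lower numbered 0 at both times, 1 at 7 h and 2 at 24 h with normexp, and up to 3 at 24 h with arrays left out.

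Samples of a time with the same replicate number share a slide. The correlations of their deviations were -0.05, 0.11 and -0.01 at 7 h and 0.08, 0.17 and -0.01 at 24 h. Those of control and OGD arrays of a time with different replicate numbers ranged from -0.18 to 0.11. With 3 arrays per group, these values cannot show whether the cultures were paired. The main fit used no pairing. With the replicate block, the adjusted p of Syngr3 at 24 h was 0.406 and that of Synpr at 7 h 0.534, vesicle genes called lower numbered 3 and 8, and no call of a member changed; with the slide as a random block (correlation 0.018) the adjusted p of Syngr3 at 24 h was 0.299.

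No alternative was run for Syp, which has no probe. The 3 arrays of a group limit the precision of every difference, and the dim Sypl2 probe limits what is known of that transcript. Values of 24 h against 7 h carry slide and scan day with them.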

Other observations

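Genes of 2 further groups that share a feature with the family were measured. Of 15 genes for MARVEL domain proteins, the fold on which the family is built, 14 had a probe and 9 were well above background on every array. At 7 h 1 was called lower and 0 higher, against 1.66% and 2.08% of all probes. The 1 was Pllp, which encodes the myelin protein plasmolipin (-1.02, adjusted p = 0.333, lower on 3 of 3 slides). Cmtm4 was lower under the fold of 2 (-0.67, adjusted p = 0.357). At 24 h 3 were called higher and 0 lower, against 3.71% and 1.96% of all probes. The 3 were Mall (1.84, adjusted p = 0.298), Cmtm7 (1.63, adjusted p = 0.355) and Cmtm3 (1.08, adjusted p = 0.294), higher on 3, 3 and 2 of 3 slides. Cmtm4 was again lower (-0.61, adjusted p = 0.348). Without the OGD 24 h array of replicate 1 the number called higher was 1, and without the control 24 h array of replicate 1 it was 0. It was also 0 with spike-in scaling, with normexp and by the methods' t-test. The median difference of the 14 genes was -0.26 at 7 h and 0.25 at 24 h (-0.06 and 0.01 over all probes), and none passed the adjusted threshold.

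Of 13 genes for triad junction proteins, the site where Sypl2 is known in muscle, 9 had a probe (Ryr1, Ryr3, Asph and Srl were not analysed here). By limma 0 were called at either time, and the methods' t-test called 0. With an unadjusted p under 0.05 alone 2 stood out at 7 h and 4 at 24 h. Of all probes, 4.79% were higher and 7.03% lower by that threshold at 7 h, and 7.51% and 6.19% at 24 h. Ryr2, the ryanodine receptor that is also the main one of brain, was lower at 7 h (-0.79, adjusted p = 0.314) and at 24 h (-0.89, adjusted p = 0.273) on 6 of 6 slides. Jph3, the junctophilin of neurons, was lower at 24 h (-0.85, adjusted p = 0.356), on 2 of 3 slides. Higher were Jph1 at 7 h (0.48, adjusted p = 0.416) on 2 of 3 slides, and Jph2 (0.80, adjusted p = 0.325) and Cacna1s (0.39, adjusted p = 0.334) at 24 h on 3 of 3 slides each. The median difference of the 9 genes was -0.11 at 7 h and -0.34 at 24 h (-0.06 and 0.01 over all probes).

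Of 13 microglia markers, 8 were well above background on every array and Ptprc on none. At 7 h 1 of the 13, Cx3cr1, was called higher (1.02, adjusted p = 0.263), against 2.08% of all probes. At 24 h 0 were called and 12 of the 13 were above 0, whereas 48.0% of all probes were below 0. The exception was Itgam (-1.54, adjusted p = 0.423), which was well above background on only 3 arrays. The signs of the 13 hold only with the array median as reference. Spike-in scaling shifts every probe by -1.02 at 24 h, and the highest of the 13 was 0.96. Of 12 oligodendrocyte markers 1 was called lower at 7 h (1.66% of all probes) and 0 at 24 h. Of 12 vascular and fibroblast markers 0 were called at 7 h and 1 higher at 24 h (3.71% of all probes).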
